A study of Mus musculus with 219 samples.

Results

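The subject is the difference between the 2 sister blastomeres of single mouse 2-cell embryos, gene by gene, set beside the difference between embryos. The members were the blastomeres of the count table in which at least 9500 genes were counted and whose sister was also kept. They were 110 blastomeres, or 55 of the table's 62 sister pairs, in a series of 219 samples. Contralateral ICSI gave 21 pairs, ipsilateral ICSI 21 and equatorial ICSI 13. The 7 blastomeres under the minimum had at most 9279 genes counted, the lowest one kept had 9973, and 1 blastomere had no sister in the table.

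All embryos had the same cross, B6C3F1 x CD1. Unfertilized metaphase II oocytes of superovulated young B6C3F1 females received a single sperm head by intracytoplasmic sperm injection (ICSI), from 1 cryopreserved batch of sperm of 2 CD1 males. The sperm head was released opposite the meiotic spindle (contralateral, Co), next to it (ipsilateral, named isolateral in the labels, Is) or halfway between (equatorial, Eq). The embryos were cultured in KSOM medium with amino acids in pools, cut into their 2 blastomeres at the 2-cell stage and lysed as single cells, and no untreated or naturally fertilized embryo was part of this comparison. The mothers were hybrids and the sires were from an outbred stock, so embryos of 1 site also differed in genotype. The part of genotype in the differences between embryos was not tested. The labels do not say which embryos shared a mother or an injection session, so p-values of comparisons between sites measure the spread between these embryos. The other p-values rest on the spread between sisters, on a trend over genes or on read counting. The letters a and b of sisters carried no order, and embryos are named here by site and number (Co15).

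A mouse 2-cell embryo lives on mRNA and proteins stored by the oocyte while it starts to transcribe its own genome, in a burst that includes the Zscan4 genes and other transcripts particular to this stage. The first cleavage divides the oocyte's cytoplasm, with its mitochondria and stored mRNA, between the 2 blastomeres, and each nucleus receives a copy of the same genome. A transcript laid down in the oocyte can therefore be split evenly or unevenly, whereas a transcript made after cleavage is made in each nucleus separately. The experiment was built to ask whether sister blastomeres differ from the start, and whether the site of sperm entry bears on it.

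Totals of the 110 blastomeres ranged from 360474 to 2100561 reads, with a median of 1340425. The larger sister total was a median of 1.12 times the smaller in contralateral, 1.11 times in ipsilateral and 1.36 times in equatorial pairs. Sisters differed by a median of 551, 370 and 614 genes counted at these sites. The 9 genes fixed as marks of an embryo of oocyte origin (such as Gdf9, Zp3 and Nlrp5) were all read and summed to 2808 to 5702 in CPM, the reads scaled to a common library size. The 11 cumulus cell markers summed to 0 to 110 CPM, with Amh at 0 in all blastomeres, and the 7 sperm transcripts to 0 to 58.2 CPM, with Tnp2 at 0. No 2 blastomeres had the same profile, and the highest correlation of log2(CPM+1) between any 2 of them was 0.822.

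Sisters resembled each other more than embryos did, but the excess was modest. It was measured in 7276 genes with a mean of at least 20 CPM, on log2(CPM+1). The mean square between embryos of the same site and plate was a median of 1.45 times the mean square within sister pairs. This ratio was over 1 in 6070 genes (83.4%). The mean square between embryos contains the variance within pairs, so embryos no more different than sisters give a ratio near 1. Written as a share, 18.5% of a gene's variance lay between embryos in the median gene, with quartiles of 5.21% and 32.1%, and the rest lay between sisters. The median gene had an SD between sisters of 0.81 on the log2 scale, and the median fold between sisters over all genes and pairs was 1.47.

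Sister differences were far larger than read counting allows. A Pearson chi-square test of both sisters' reads against their totals called 7276 of 7276 genes (100%) at an adjusted p under 0.05. Poisson counting made up 5.20% of the within-pair variance in the median gene, with quartiles of 3.87% and 6.93%. These libraries carried no molecular identifiers, so reads are not independent molecules and the test compares the libraries with counting error only. The noise of amplification from 1 cell was not measured on its own, and its part in the sister differences was not tested.

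A gene was called shared by sisters where edgeR's quasi-likelihood test of the embryo term, within site and plate, had a Benjamini-Hochberg adjusted p under 0.05. It called 1310 of 7276 genes, or 18% of those tested. Where the difference between embryos was taken only from non-sister blastomeres in neighbouring wells of a plate, in 38 comparisons of 76 blastomeres, the median share between embryos was 15.8% in place of 18.5%.

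Some of the most shared transcripts were read in some embryos and not in others, in both sisters alike. Trac (chromosome 14, 54220521 to 54224206, GRCm38), which encodes the constant region of the T cell receptor alpha chain, led the genes with a ratio of 17.8 and 89.4% of its variance between embryos (edgeR adjusted p = 8.6e-10). It had no read in either sister in 19 pairs, reads in both in 31 and reads in only 1 sister in 5. The silent pairs were found at every site, 8 contralateral, 6 ipsilateral and 5 equatorial. Pair levels of Trac ran from 0 through a median of 3.91 to 6.38 log2(CPM+1) in contralateral, from 0 through 5.37 to 6.30 in ipsilateral and from 0 through 4.71 to 6.23 in equatorial embryos, and the sites overlapped over their whole range. The widest exception was Co54, whose sisters differed by 6.40 on this scale, with 1 of them at 0 reads.

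Ajap1 (chromosome 4, 153373221 to 153482811), a protein associated with adherens junctions, had the same pattern, with a ratio of 11.3 (edgeR adjusted p = 1.9e-09). Neither sister had a read in 11 pairs, both had reads in 42 and only 1 sister had reads in 2. Those were Is57, with 198 and 0 reads, and Co48, with 0 and 96 reads. Gli3 (chromosome 13, 15463235 to 15730026), a zinc-finger transcription factor of the hedgehog pathway, varied over a wide range between embryos at a ratio of 10.3 (adjusted p = 7.6e-13). Its pair levels ran from 1.12 to 9.03 in contralateral, from 0 to 8.68 in ipsilateral and from 0.97 to 9.21 in equatorial embryos, while the median difference between sisters was 0.46, 0.60 and 0.23 on the same scale. Is59 departed from this, with 0 reads of Gli3 in 1 sister and 141 in the other.

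**Figure D1:**
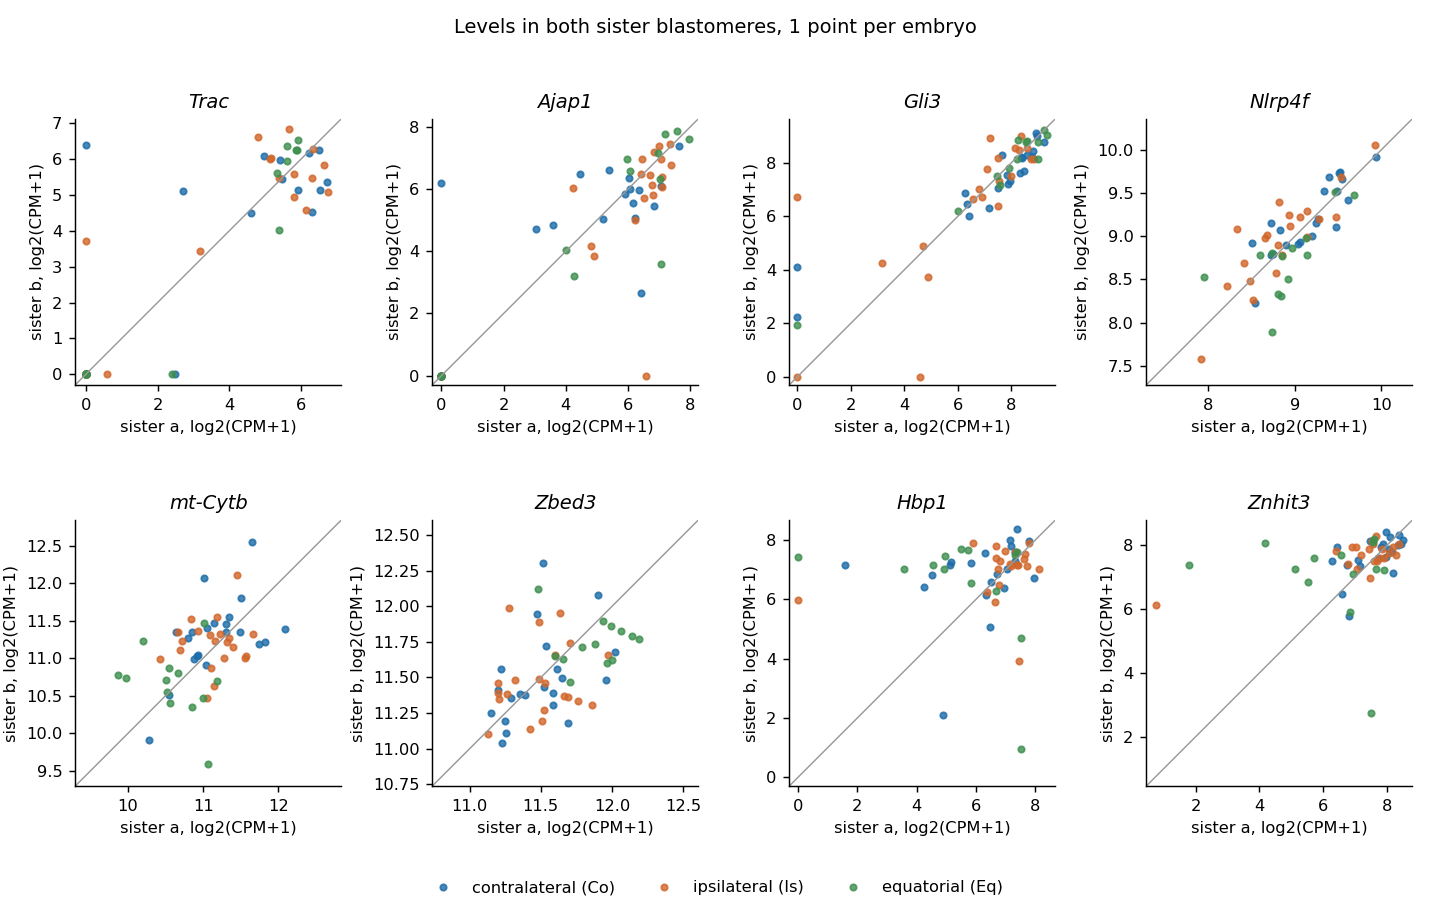
Level of 8 genes in sister a (x axis) and sister b (y axis), in log2(CPM+1), 1 point per embryo and coloured by ICSI site, with the line of equality. Each panel has its own axis range. Relative to that range, Trac, Ajap1, Gli3 and Nlrp4f lie along the line, whereas mt-Cytb, Zbed3, Hbp1 and Znhit3 spread away from it. Pairs with both sisters at 0 are included for Trac (19) and Ajap1 (11). Spread cannot be compared between panels, and 16 pairs differ by more than 2-fold in Ajap1.

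The other leaders were of mixed function. Dcc, the netrin receptor, Frrs1, a ferric reductase, Celf4, an RNA-binding protein of splicing, and the X-linked genes Prps1, an enzyme of nucleotide synthesis, and Bex1 had ratios between 7.24 and 9.68. The ratio of Prps1, 9.36, rested largely on equatorial embryos 31 and 67, without which it was 2.35 (edgeR adjusted p = 0.015), and it did not pass in ipsilateral embryos alone (ratio 1.33, edgeR adjusted p = 0.50). Neither sister had a read of Frrs1 in 7 pairs, of Bex1 in 9 and of Dcc in 4. Nlrp4f, a maternal gene of the NLRP family, and Tbc1d15, a regulator of the small GTPase Rab7, were shared in another way, since they were read in every blastomere. Nlrp4f had a ratio of 7.78 (edgeR adjusted p = 2.4e-11) with an SD between sisters of 0.21, and Tbc1d15 a ratio of 7.23 (adjusted p = 3.8e-10) with an SD of 0.16. The largest sister difference of Tbc1d15 was 0.67 log2 units, in Is62, and no pair differed by more than 2-fold in either gene.

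Fitted alone, contralateral embryos gave 873 shared genes (12%), ipsilateral 384 (5.28%) and equatorial 39 (0.536%). The counts cannot be read as a difference between sites, because equatorial ICSI had 13 pairs against 21 and its sisters differed more in depth. The median share of variance between embryos was 23.3% in contralateral, 18.3% in ipsilateral and 11.9% in equatorial pairs, and the difference was not tested. The contralateral and ipsilateral fits had 197 shared genes in common, which is 22.6% of the contralateral and 51.3% of the ipsilateral calls. The equatorial fit had 25 genes in common with the contralateral and 21 with the ipsilateral one, or 64.1% and 53.8% of its calls. Of the 39 equatorial calls 13 were X-linked, with 244 X-linked genes tested. The level of the X-linked genes as a set was lowest in Eq67 and Eq31, as described below. Plate 1 alone, which leaves out Eq67 and Eq71, gave 10 equatorial calls. The part of Eq31 and Eq67 in the equatorial calls, and so in the genes called at every site, was not tested. In all 3 fits 17 genes passed. With predicted genes left out these were 9, namely Trac, Ajap1, Gli3 and Celf4, the nuclear body protein Sp110, the nucleolar protein Nolc1, the X-linked mitophagy receptor Fundc1, and the chromatin proteins Hmgb3 and Rbbp7, both X-linked.

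Several genes of the 2-cell burst were shared by sisters. Of 26 tested genes in the list of 2-cell activation, 14 passed (53.8%, against 18% of all genes), and their median share of variance between embryos was 43.5%. Among genes with a mean of at least 50 CPM, 14 of 22 passed (63.6%, beside 30.6% of all genes). Sp110 had a ratio of 6.83 (edgeR adjusted p = 8.5e-09) and the histone H3K4 demethylase Kdm5b 5.24 (2.2e-08). Zscan4d, of the family that marks this stage, passed at 3.70 (3.5e-05). Its pair levels ran from 5.42 through a median of 7.82 to 8.51 log2(CPM+1) in contralateral, from 5.70 through 7.59 to 8.73 in ipsilateral and from 4.13 through 6.48 to 7.74 in equatorial embryos, and sisters differed by a median of 0.52, 0.58 and 0.60. Its paralog Zscan4c missed the threshold at a ratio of 2.67 (edgeR adjusted p = 0.061). Fitted by site it passed in contralateral embryos (7.52, 0.015) and not in ipsilateral or equatorial ones. Sisters differed in Zscan4c by a median of 0.24 in contralateral, 0.61 in ipsilateral and 2.01 in equatorial pairs. Its absolute sister difference was 1.22 larger in equatorial than in contralateral pairs (limma adjusted p = 0.036) and 0.92 larger than in ipsilateral pairs (0.12). The median pair level of Zscan4c was 4.38 log2(CPM+1) in equatorial, 5.17 in contralateral and 5.36 in ipsilateral embryos, and the groups overlapped. The part of this level in the sister difference was not tested. Reads of these near-identical copies could be split between them by the counting. At the other end of the list, Pramef12 had a ratio of 1.03 and Zfp809, a zinc-finger silencer of retroviruses, 0.89, and neither passed.

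Among stored maternal transcripts the picture was mixed, with values mostly above the 18% of all genes. The share called also rose with level, and among all genes with a mean of at least 50 CPM it was 30.6%. The median level was 158 CPM in the lists of maternal-effect genes and of mRNA storage and decay. It was 67.1 CPM in zona and egg surface genes and 207 CPM in oocyte growth and transcription factors, beside 70.4 CPM in all genes. The part of level in these shares was not tested. In the list of the subcortical maternal complex and maternal-effect genes, 8 of 20 passed (40%), in maternal mRNA storage and decay 9 of 22 (40.9%), in zona and egg surface genes 3 of 9 (33.3%), and in oocyte growth and transcription factors 2 of 9 (22.2%). H1foo, the linker histone of the oocyte, had a ratio of 4.09 (edgeR adjusted p = 2.9e-06) and Bmp15, a secreted growth factor of the oocyte, 4.24 (8e-06). The 4E-T protein gene Eif4enif1, which represses stored mRNA, passed at 3.15 (0.0005). Dppa3, a factor that protects maternal chromatin marks, passed at a lower ratio of 1.86 (0.0066), and Gdf9, the partner of Bmp15, missed at 1.81 (0.064). Dnmt1 and Pou5f1, at 1.06 and 0.98, did not pass.

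The shares in 8 lists of other functions ran from 16.7% to 44.4%. Their median levels ran from 94.4 CPM in Golgi and coat proteins to 160 CPM in the midbody list, above the 70.4 CPM of all genes. Among all genes with a mean of at least 50 CPM the share was 30.6%, and the part of level was not tested. Of 79 cytosolic ribosomal protein genes 27 passed (34.2%), but in plate 1 alone 18 did (22.8%, beside 19.4% of all genes) and with all 62 pairs 3 (3.80%, beside 6.40%). Of 28 genes of the midbody and central spindle 9 passed (32.1%), of 35 cell cycle regulators 11 (31.4%), and of 16 genes of Swr1-type chromatin complexes 5 (31.3%). Endoplasmic reticulum genes had 9 of 36 (25%), Golgi and coat proteins 6 of 33 (18.2%) and cortical polarity and actin genes 4 of 24 (16.7%). Securin (Pttg1) had a ratio of 3.67 (edgeR adjusted p = 2e-06), cyclin E1 (Ccne1) 4.45 (1.3e-05) and survivin (Birc5) 4.08 (0.0004), whereas the replication licensing gene Mcm3 had 0.81 and differed by more than 2-fold between sisters in 32 of 55 pairs. The Carm1 list, named for the arginine methyltransferase studied in blastomere fate, had 4 of 9 (44.4%), led by the nucleosome-binding protein gene Hmgn1 at 5.02 (1.4e-05). Carm1 itself was below the level tested, with a mean of 5.61 CPM, and had reads in both sisters of 24 pairs, in 1 sister of 21 and in neither of 10. Sox21 had at most 4 reads in a blastomere, and Znhit1 a mean of 3.81 CPM.

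**Figure D2:**
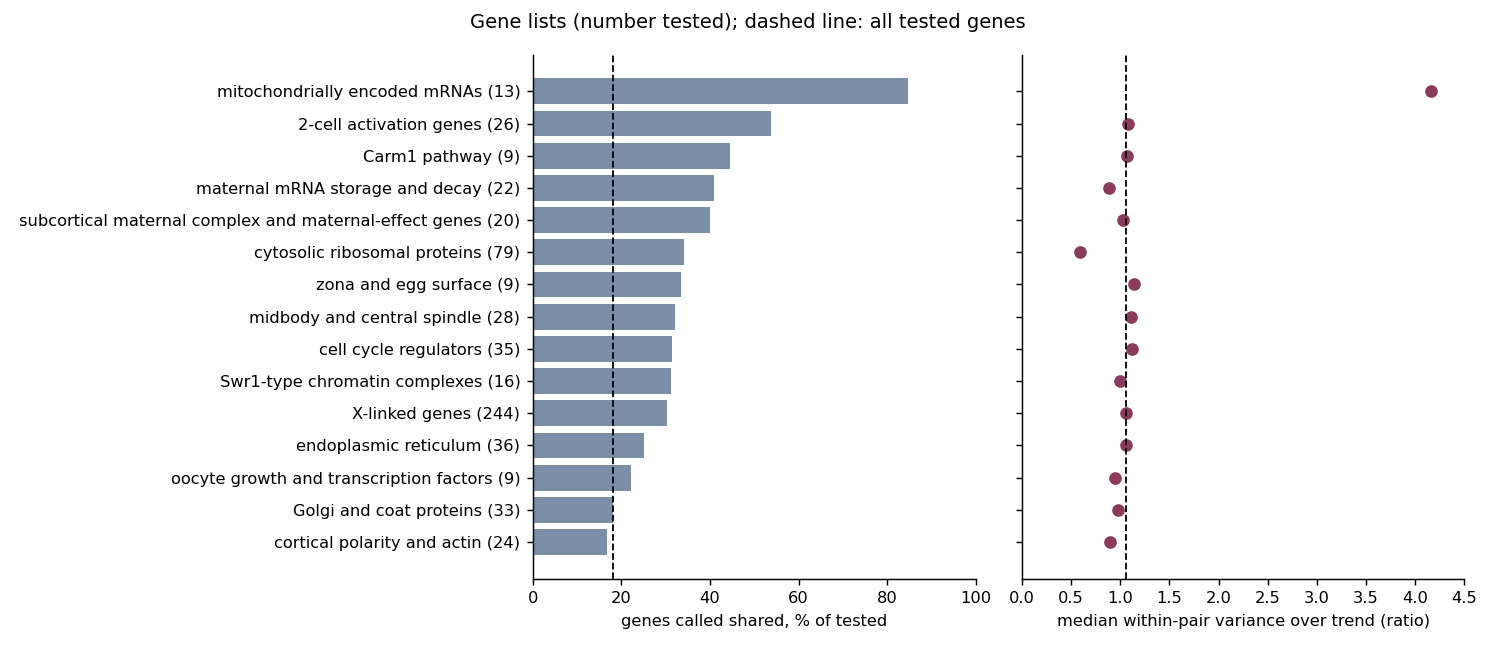
Gene lists with the number of tested members in brackets, showing the percent of members called shared by sisters (left, bars) and the median within-pair variance over the trend of all genes at the same level (right, ratio, points), with dashed lines at the values of all tested genes. Mitochondrially encoded mRNAs stand highest on both axes (84.6% and 4.16), and cytosolic ribosomal proteins have the lowest within-pair variance (0.59).

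Most mitochondrially encoded mRNAs passed as shared and a few as unequal. All 13 were tested and 11 passed as shared (84.6%), while with all 62 pairs 4 of 13 did (30.8%, beside 6.40% of all genes). Their median level was 1207 CPM, beside 70.4 CPM in all genes. Among genes with a mean of at least 50 CPM 12 of 13 passed (92.3%, beside 30.6% of all genes), and the part of level was not tested. Their median within-pair variance was 4.16 times the trend, the variance that limma fits for genes of their level. An unequal gene was one whose within-pair variance exceeded this trend at an adjusted p under 0.05, and 10 of 7276 genes did so (0.137%), among them 3 of these 13 (23.1%). mt-Cytb, which encodes cytochrome b of complex III, lay 13.6 times above the trend (limma adjusted p = 0.0012), mt-Atp6, of the ATP synthase, 8.30 times (0.018), and mt-Nd4, of complex I, 6.67 times (0.038). The absolute difference of mt-Cytb between sisters was small, since highly expressed genes vary little. It ran from 0.05 through a median of 0.32 to 1.06 log2 units in contralateral, from 0.07 through 0.42 to 0.68 in ipsilateral and from 0.02 through 0.49 to 1.47 in equatorial pairs, and the sites overlapped.

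The 13 mRNAs moved together between sisters. A single axis held 81.5% of their sister sum of squares, with all 13 loadings of 1 sign, and all 13 differed in the same direction in 22 of 55 pairs. The signed differences of the 13 were averaged in each pair, and the size of this mean had a median of 0.20 log2 units and ran from 0.005 to 1.30. Differences in opposite directions cancel in it, as in Co14, the lowest pair, where 8 of 13 went the same way. The sister with more genes counted had the higher mean level in 27 of 55 pairs. The part of library complexity in these differences was not tested. The highest value was that of Eq36, whose sister a had the smallest library of all (360474 reads) and a mitochondrial share of 1.72% of reads against 0.756% in sister b. Without Eq36 the call of mt-Nd4 was lost (limma adjusted p = 0.11), as it was without Eq39 or Eq71, while mt-Cytb and mt-Atp6 remained called with any single pair left out (at most 0.0051 and 0.041). mt-Atp6 missed the threshold at a mean of 50 CPM (limma adjusted p = 0.075) and in 48 pairs (0.10), as mt-Nd4 did in these and in plate 1 alone (0.12, 0.24 and 0.061).

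The other 4 named unequal genes were nuclear. Zbed3, a zinc-finger protein that belongs to the subcortical maternal complex of mouse oocytes, was read in every blastomere and lay 6.77 times above the trend (limma adjusted p = 0.038). Its sister differences ran up to 0.79 log2 units, in Co8, and no pair differed by more than 2-fold, so the call came from small differences of an abundant transcript. Without Eq38 it missed the threshold (0.064). Zbed3 was also shared, with a ratio of 1.84 (edgeR adjusted p = 0.0073), as were 4 of the 10 unequal genes.

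Hbp1, an HMG-box transcriptional repressor, differed by more than 2-fold in 25 of 55 pairs and lay 6.72 times above the trend (limma adjusted p = 0.038). Eq67 had 0 and 269 reads of it, Eq38 had 362 and 1, Is64 had 0 and 91, and Co54 had 3 and 199. In each of these pairs 1 sister had at most 3 reads. Its median sister difference was 1.00 in contralateral, 0.30 in ipsilateral and 2.20 log2 units in equatorial pairs. Leaving out any of Eq38, Is64 or Eq67 took it over the threshold (at most 0.087).

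Znhit3, which takes part in the assembly of small nucleolar ribonucleoproteins, lay 6.45 times above the trend (limma adjusted p = 0.038), with 3 and 251 reads in Eq44 and 354 and 6 in Eq38. Gnpda2, a glucosamine-6-phosphate deaminase, lay 6.15 times above it (0.049), with 229 and 0 reads in Eq37 and 0 and 91 in Eq39. These calls rest on a few pairs. Without Eq44 the adjusted p of Znhit3 was 0.18, and its call also ended without Eq38, Is64 or Eq71. Without Eq37 the adjusted p of Gnpda2 was 0.56, and 16 single pairs each ended the call of Gnpda2. The remaining unequal genes were the predicted or unnamed transcripts Gm10800, AA545190 and Gm42418. Of the 7 named unequal genes, mt-Cytb alone was called under every alternative. With the part of the sister difference that goes with genes counted removed, Zbed3, Hbp1, Znhit3 and Gnpda2 missed the threshold (limma adjusted p from 0.087 to 0.19). With the sites fitted alone no gene was called unequal in contralateral (0%), ipsilateral (0%) or equatorial (0%) pairs by the same limma fit, and 314, 302 and 275 genes had an unadjusted p under 0.05.

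On the X chromosome, 74 of 244 genes passed as shared (30.3%), beside 1222 of 7010 autosomal genes (17.4%). The X-linked genes' median share of variance between embryos was 26.5%, beside 18.2%, and the difference was not tested. Among them were the ribosomal protein genes Rps4x, with a ratio of 6.67 (edgeR adjusted p = 4.2e-06), and Rpl39, with 5.95 (0.00014). Without equatorial embryos 31 and 67, left out after the data had been seen, 51 of 246 X-linked genes passed (20.7%), beside 17.1% of all genes.

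The Y-linked transcripts Eif2s3y, Ddx3y, Uty and Usp9y went with the embryo as a sum, but not each of them alone. Summed, they had at least 6 reads in both sisters of 18 pairs (7 contralateral, 3 ipsilateral, 8 equatorial), with 6 to 254 reads, and at most 4 reads in either sister of 36 pairs. The pair outside both groups was Co54, with 2 and 55 reads. Eif2s3y, a translation initiation factor subunit, was read in both sisters of 17 pairs, in 1 sister of 2 and in neither of 36. Usp9y was read in both sisters of 13 pairs and in 1 sister of 4, and Uty in both of 18 and in 1 of 12. Ddx3y went the other way, with reads in both sisters of 2 pairs and in 1 sister of 11. Its highest count where the other sister had none was 58 reads. Kdm5d was read in both sisters of all 55 pairs, so its reads may include those of a near-identical gene and are uncertain.

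The level of the X chromosome was set against these transcripts as a value per pair, the mean over the 244 X-linked genes of the pair level less its plate's mean, each gene in units of its SD over pairs. The 12 pairs with the lowest values all belonged to the 18 with Y-linked reads, and none of the 12 pairs with the highest values did. Eq67 (-1.70) and Eq31 (-1.14) lay far below the others, followed by Eq39 (-0.72). In Eq67 only 20 of 244 X-linked genes stood above the pair's median gene, and 47 of them (19.3%) had no read in either sister, against 1.33% of its autosomal genes. In Eq31 24 had none (9.84%, against 0.20%). Both parts of the X chromosome in Eq67, divided at the middle gene, had the value -1.70.

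Some X-linked transcripts were lacking in both sisters of Eq67 and others in 1 sister only. Besides the 47 genes at 0 in both, 30 had no read in sister a alone and 19 in sister b alone. Prps1, Rps4x and Bex1 had 0 reads in either sister, and 17 X-linked genes at 0 in both were read in both sisters of at least 50 other pairs. Bmp15, an X-linked gene that the oocyte transcribes during its growth, kept 804 and 1109 reads. DNA copy number was not measured, so the number of X chromosomes in these embryos is not known. Xist, the RNA of X inactivation, was below the level tested at a mean of 8.20 CPM and was read in both sisters of 16 pairs, in 1 sister of 16 and in neither of 23.

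**Figure D3:**
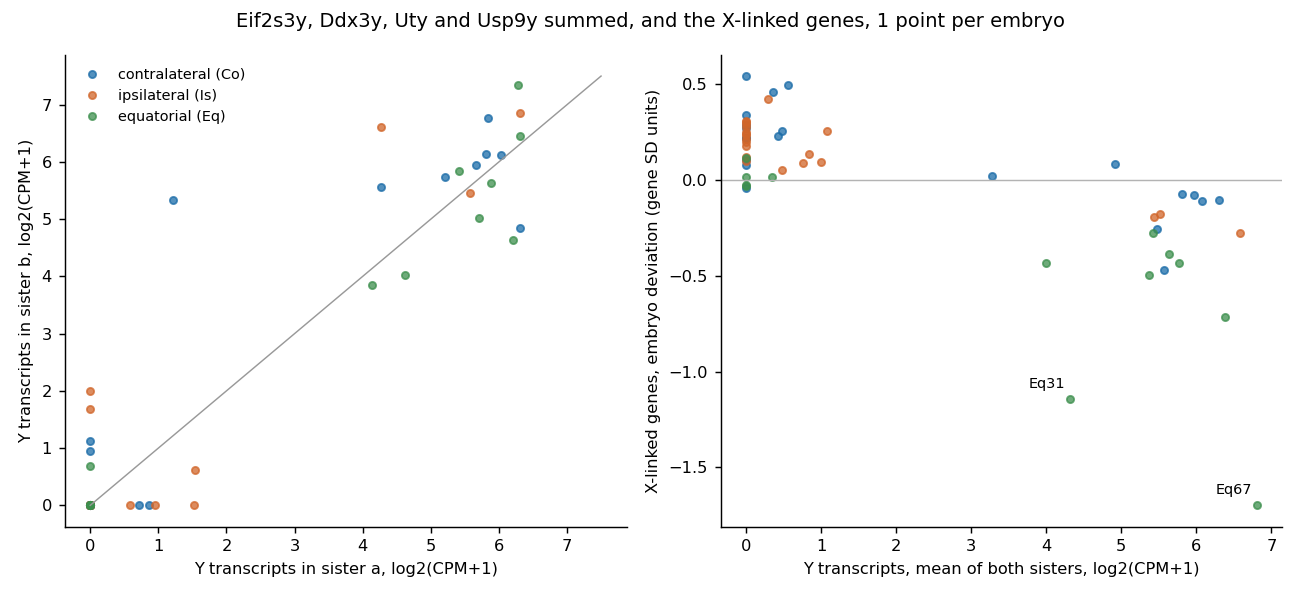
Sum of 4 Y-linked transcripts in sister a and sister b, in log2(CPM+1), with the line of equality (left), and the chromosome-wide value of the X-linked genes in gene SD units against the mean of both sisters' Y-linked transcripts (right), 1 point per embryo. In 18 pairs both sisters have at least 6 Y-linked reads, the 12 lowest X values are all among them, and Eq67 (-1.70) and Eq31 (-1.14) stand lowest.

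The same value was computed for every chromosome, after the data had been seen, and is given as a description with no test. Over 55 pairs and 20 chromosomes this gave 1100 values for both sisters together and 1100 for the difference between sisters. A value counted as apart where it was over 4 robust SDs of that chromosome's values, and 15 values in 9 pairs were so for both sisters together. On the scale of gene SDs the X chromosomes of Eq67 and Eq31 were the most extreme of them. In units of the chromosome's own spread chromosome 7 in Co15 was, at -0.65 or 17.1 robust SDs below the pair's median over chromosomes (6.81 for the X of Eq67). There 132 of 497 genes (26.6%) stood above the pair's median gene and both parts of the chromosome were low (-0.66 and -0.63). Chromosome 7 was also low in Is57 (-0.37) and chromosome 10 in Co9 (-0.40), and chromosome 4 was high in Is19 (0.29). Co5 had chromosomes 2, 5, 9 and 18 high (0.28 to 0.35) and chromosome 19 low (-0.38). All 15 values were found in both parts of their chromosome.

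Between sisters, 19 values in 13 pairs were apart, 5 contralateral, 7 ipsilateral and 1 equatorial. In Is57 sister a was higher over chromosome 4 (0.41) and chromosome 18 (0.46), and on chromosome 4 that embryo also had the unequal Ajap1 named above. In Co47 it was higher over chromosome 19 (0.51), where 161 of 236 genes (68.2%) favoured it, and in Is24 lower over chromosome 3 (-0.39). Is21 had chromosomes 1, 6 and 11 lower in sister a (-0.18, -0.31 and -0.35), and Co48 chromosomes 10 and 11 (-0.35 and -0.25). In 14 of the 19 values both parts of the chromosome exceeded 0.5 of the value. In the other 5 the difference lay mostly in the second part, as on chromosome 2 of Co10 (0.13 in the first part and 0.51 in the second), chromosome 7 of Is29 (-0.07 and -0.48) and chromosome 8 of Is30 (-0.07 and -0.45). No sister difference of the X chromosome was apart, but its limit was the highest. The robust SD of its sister differences was 0.13, against 0.038 to 0.084 on the autosomes. The largest X difference was 0.34 in size, in Co50, so the X cannot be read as more even between sisters.

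**Figure D4:**
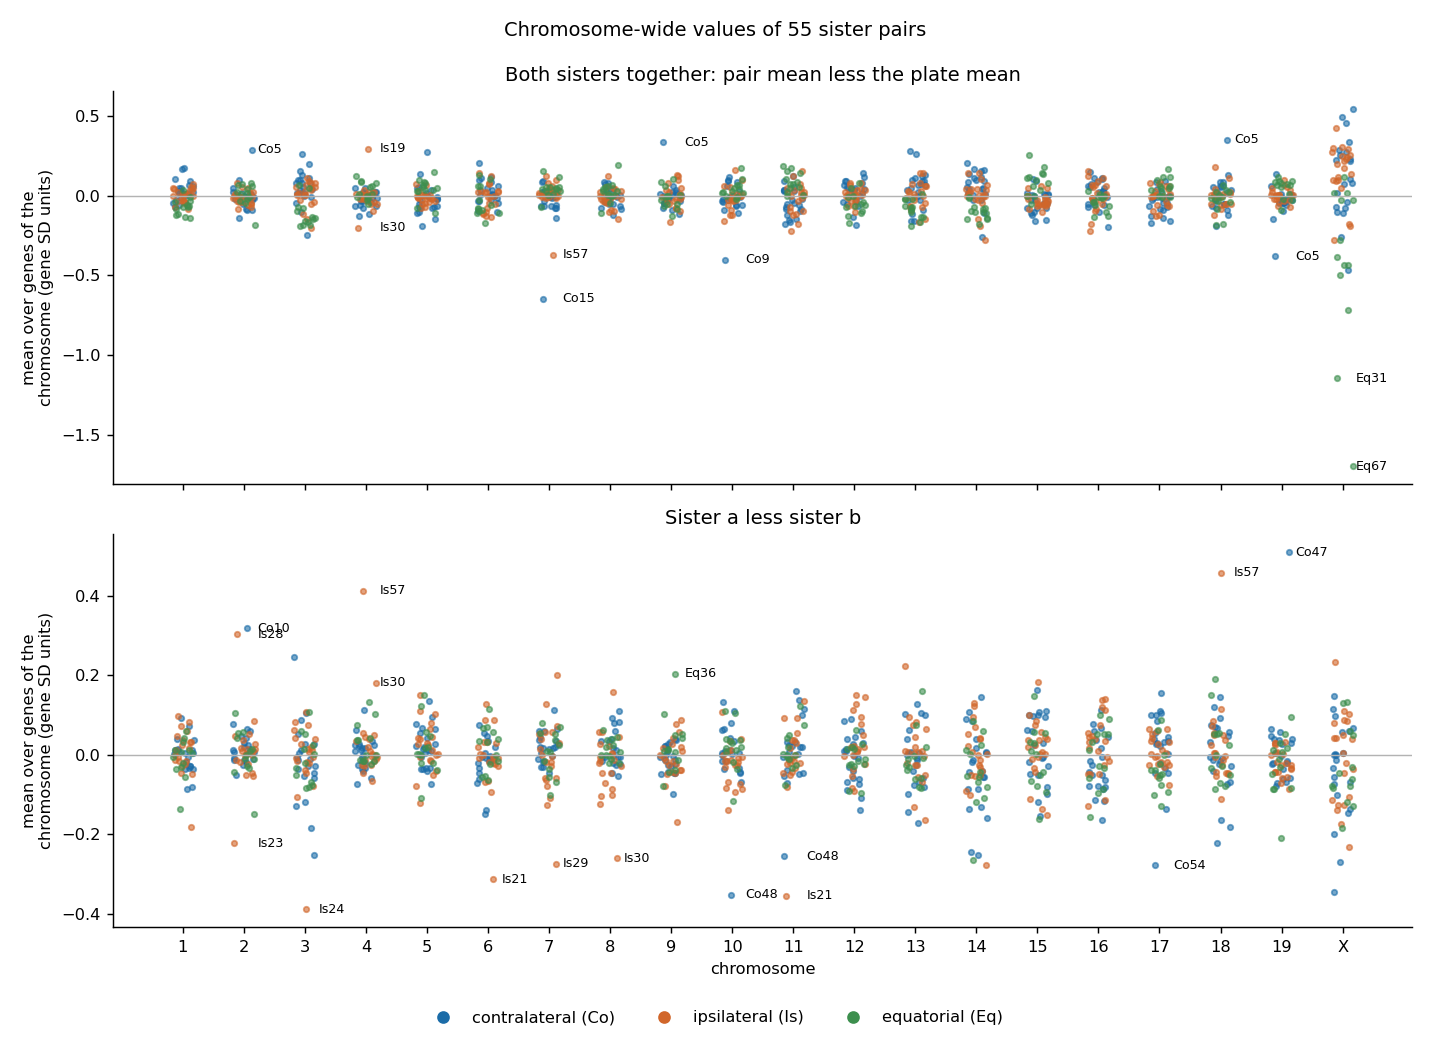
Chromosome-wide values of 55 sister pairs, as the mean over a chromosome's tested genes in gene SD units, for both sisters together less the plate mean (upper panel) and for sister a less sister b (lower panel), 1 point per embryo and chromosome, coloured by ICSI site. Chromosome 7 of Co15 (-0.65) and the X chromosome of Eq67 (-1.70) stand apart above, and chromosomes 4 (0.41) and 18 (0.46) of Is57 and 19 of Co47 (0.51) below.

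No single axis ordered sisters across genes. The leading axis of all sister differences held 6.65% of their sum of squares and the next 3.64%. At its positive end were Hbp1, Tctex1d1, Itgae, Dctn6, Tbpl2, a TATA-binding protein of oocytes, Mtch2, of the outer mitochondrial membrane, and the mitochondrial ribosome genes Mrps22 and Mrpl22. At its negative end were Pygo2, a coactivator of Wnt signalling, Cluh, Zfp92, Fam57a, Rhobtb2, Rab11fip4, Sort1 and the linker histone gene Hist1h1a. The 200 genes at the positive end had shorter transcripts (median 1872 bases, against 3483 of all genes) with a GC content of 45.9%, and the 200 at the negative end had 54.6%. In 40 of 55 pairs the sister higher on this axis had the larger mitochondrial share. In 32 of 55 it had more genes counted (11 of 21 contralateral, 10 of 21 ipsilateral and 11 of 13 equatorial pairs). The sign of the axis was set by this same count, so its total could only be a majority. Among the 27 pairs with the larger scores the higher sister had more genes counted in 21. The part of library complexity in the axis was not tested. An axis fitted on 1 site held 1.38% to 2.07% of the sum of squares at the other sites, against 8.91% to 15.2% at its own. The share at its own site is that of the pairs used to fit it, which favours a higher value. A share for a random axis was not computed, so these values do not show how far an axis carries over. With the axes turned the same way, 177, 164 and 168 of the 200 highest loadings of the contralateral, ipsilateral and equatorial axis had the same sign on the axis of the other sites. Turning the axes favours the same sign, and 4360 of 7276 genes had a positive loading on the leading axis. The count over all genes was not computed, so these counts do not show how far the axes agree.

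Equatorial pairs had the highest mean sister difference, by a margin that missed the threshold after adjustment. The root mean square sister difference over all 7276 genes, less its counting part, was 1.52 ± 0.28 log2 units (SD, n = 13) after equatorial, 1.32 ± 0.24 (n = 21) after contralateral and 1.31 ± 0.25 (n = 21) after ipsilateral ICSI. Equatorial exceeded contralateral by 0.20 and ipsilateral by 0.21 in 2-sided permutation tests (p = 0.037 and 0.034, adjusted p = 0.055 for both over 3 comparisons). Within plate 1 alone the differences were 0.16 (adjusted p = 0.11) and 0.28 (0.013), and plate 2 held 2 equatorial pairs, too few for a value. Contralateral and ipsilateral pairs differed by 0.007 (permutation p = 0.92), and within plate 1 alone by 0.11 (permutation p = 0.14). Plate 2 held 3 contralateral and 8 ipsilateral pairs. The permutation tests over both plates, here and below, took no account of plate. Eq67 (1.95), Eq71 (1.92), Eq36 (1.79) and Eq38 (1.77) were the most unequal pairs, followed by Is56 (1.75) and Co54 (1.71), and the 3 groups overlapped.

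The share of genes that differed by more than 2-fold between sisters was 33.8% ± 6.64 (SD, n = 13) in equatorial, 28.8% ± 6.36 (n = 21) in contralateral and 27.6% ± 5.09 (n = 21) in ipsilateral pairs. The equatorial share exceeded the ipsilateral one (permutation test, adjusted p = 0.017) and not the contralateral one at the threshold (0.057). Equatorial sisters also differed more in their totals, at a median ratio of 1.36 against 1.12 and 1.11. Pairs with at least 6 Y-linked reads in both sisters were also uneven across sites. They were 8 of 13 equatorial, 7 of 21 contralateral and 3 of 21 ipsilateral pairs. The parts of these totals and of this uneven share in the comparisons of sites were not tested.

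By gene, limma on the absolute sister difference with plate as a covariate called 64 genes between equatorial and contralateral pairs (0.88%) and a larger number between equatorial and ipsilateral pairs (1.44% of 7276). All of them differed more between sisters in equatorial embryos, and 34 genes were called in both comparisons, which share the equatorial pairs. Between contralateral and ipsilateral pairs it called 0 genes (0%), and 340 had an unadjusted p under 0.05. With the pair's mean total and the sisters' difference in total as covariates the counts were 15 and 17, all among the genes called without them. Within plate 1 alone they were 37 and 9.

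Fam229b, Rora and Ptpro had the smallest adjusted p in both equatorial comparisons. Fam229b (chromosome 10, 39118804 to 39133914), a gene of little known function, had absolute sister differences of 0.63 to 6.31 log2 units in equatorial pairs with a median of 4.02, against medians of 0.41 in contralateral and 0.80 in ipsilateral pairs. Its difference was 2.65 ± 0.48 higher (SE) than in contralateral and 2.59 ± 0.49 higher than in ipsilateral pairs (limma adjusted p = 0.00079 and 0.0011). It was at 0 reads in 1 sister of Eq33, Eq36, Eq38, Eq39 and Eq43, where the other had 90, 61, 100, 71 and 87 reads. The other 8 equatorial pairs had reads in both sisters, of which Eq32, with 74 and 53, and Eq31, with 72 and 94, differed least. The pair level of Fam229b was lower in equatorial embryos, at a median of 4.95 log2(CPM+1) against 6.48 in contralateral and 6.50 in ipsilateral embryos, and the groups overlapped. The part of this level in the sister difference was not tested.

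Rora (chromosome 9, 68653786 to 69388246), a retinoid-related orphan nuclear receptor, had sister differences of 0.50 to 4.81 in equatorial pairs with a median of 1.85, against medians of 0.32 in contralateral and 0.38 in ipsilateral pairs. Eq38 had 282 and 6 reads and Eq71 had 3 and 176, whereas Eq37 had 130 and 90. The difference was 1.58 ± 0.28 (SE) against contralateral and 1.63 ± 0.29 against ipsilateral pairs (limma adjusted p = 0.00079 and 0.00066). Its pair level was also lower in equatorial embryos, at a median of 5.42 log2(CPM+1) against 7.16 and 6.75, and the groups overlapped.

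Ptpro (chromosome 6, 137252319 to 137463233), a receptor-type tyrosine phosphatase, differed between sisters by a median of 1.93 in equatorial pairs and 0.49 and 0.55 in contralateral and ipsilateral pairs. Eq44 differed most, by 6.28 log2 units, with 1 sister at 0 reads, and Eq71 had 0 and 71 reads. The difference was 2.21 ± 0.41 (SE) and 2.27 ± 0.42 (limma adjusted p = 0.00097 and 0.00086). The pair level was lower here too, at a median of 4.12 against 5.76 and 5.81, and the part of the level in the sister difference was not tested. Leaving out any single pair ended none of these 6 calls, and the highest adjusted p was 0.0093. With all 62 pairs none of the 6 passed, and with depth as a covariate Fam229b missed against ipsilateral pairs (1.98, limma adjusted p = 0.1). Of the unequal genes, Znhit3 differed more in equatorial than in contralateral pairs, by 1.37 ± 0.36 (limma adjusted p = 0.04), and Hbp1 more than in ipsilateral pairs, by 2.00 ± 0.50 (0.03). The other comparison of each is not given here, and Gnpda2 passed in neither (limma adjusted p = 0.16 and 0.17). Znhit3 and Hbp1 had been called unequal on the same sister differences, and single equatorial pairs ended those calls. The site comparison is therefore no separate support for them. The shared genes Trac, Ajap1 and Gli3 passed in neither comparison.

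**Figure D5:**
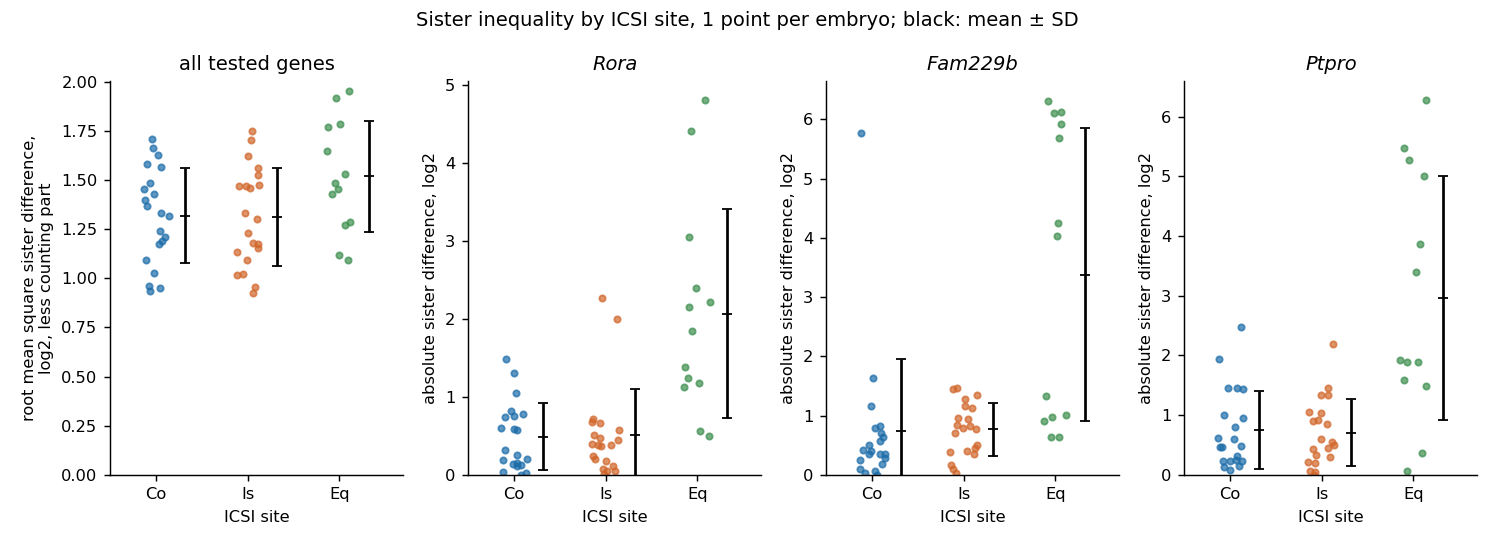
Root mean square sister difference over all tested genes less its counting part, and absolute sister differences of Rora, Fam229b and Ptpro, all on the log2 scale, by ICSI site, 1 point per embryo, with black bars for the mean and SD. Equatorial pairs have a mean of 1.52 over all genes against 1.32 and 1.31, and Fam229b has a median difference of 4.02 in equatorial pairs against 0.41 and 0.80.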

How the data were processed

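Single blastomeres on 2 plates were sequenced as full-length cDNA (SMART-Seq kit, Nextera XT, NovaSeq). The authors cut first reads to 100 bases, trimmed them with Trimmomatic and mapped them by STAR (2.7.10b per the submitters' processing notes, SmartSeq option, unstranded) against GRCm38 annotated by GENCODE M23. What the authors deposited are raw counts, whole numbers of reads of 32285 genes in each blastomere. Since strand was not used, overlapping genes cannot be told apart. Site, embryo, sister letter, plate and well came from the labels. On each plate the sites filled separate rows of wells, so site and row position cannot be told apart. Blastocysts and the deposited matrix with identical reads counted once were not used here.

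CPM were computed on library totals, and variances on log2(CPM+1), for 7276 genes with a mean of at least 20 CPM in 110 blastomeres. Gene coordinates are from GENCODE M21 of GRCm38. Shared genes were tested with edgeR 4.0.16 (quasi-likelihood, robust, embryo term within site and plate), unequal genes against the robust variance trend of limma 3.58.1, counting noise with a Pearson chi-square test, and sites with limma on absolute sister differences and with 100000 permutations of pairs. P-values were adjusted by Benjamini-Hochberg, over all genes tested or, for the permutation tests, over the 3 comparisons of sites, with a threshold of 0.05. The fits were tested on simulated data. Totals of 360474 to 2100561 reads set the counting error, which the chi-square test alone covers, whereas the SDs and SEs given are over pairs. In the chromosome values, gene values were held within 3 SDs, and each pair's median over chromosomes was taken away.

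Named genes were, with predicted genes left out, the 10 shared genes with the highest ratio, up to 10 unequal genes with the highest variance over the trend, in each site comparison with calls the 3 with the lowest adjusted p, 8 genes at each end of the leading axis, up to 4 members of each list at its extremes, and fixed genes (Zscan4c, Zscan4d, Dppa3, Gdf9, Bmp15, Carm1, Sox21, Xist, Eif2s3y, Ddx3y and Znhit1). The members, lists and genes were chosen with earlier results of these data known. Alternatives were limma, DESeq2 1.42.0, TMM factors, a pseudocount of 5, depth covariates, plate 1 alone, means of 5 or 50 CPM, 48 pairs with a mitochondrial share of at most 0.02 of counts, and all 62 pairs. Leaving out single pairs or chosen equatorial embryos was added after seeing the data. Python 3.11.15 and R 4.3.3 were used.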

Additional observations from a re-analysis of the deposited data

Results flagged for a closer look

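For a small share of genes the size of sister differences differed between ICSI sites in a test of that difference itself, while the value over all genes missed the threshold (permutation test, adjusted p = 0.055 for both equatorial comparisons). By limma, 0.88% of 7276 genes had larger sister differences after equatorial than after contralateral ICSI and 1.44% larger ones than after ipsilateral ICSI, with none in the other direction. With all 62 pairs 0 and 3 genes passed. Equatorial sisters also differed more in their totals, at a median ratio of 1.36 against 1.12 and 1.11. With the mean total and the difference in total as covariates 15 and 17 genes passed, and the part of depth was not otherwise tested. Embryos with Y-linked reads were unevenly spread over the sites, and the part of this was not tested.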

How the results depend on the processing

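The 10 most shared genes remained called under each alternative in which they were tested. Trac, Frrs1 and Bex1 had means under 50 CPM and were not tested at that limit. The count of shared genes, 1310, was 2323 with limma, which held 1305 of them, 2991 with DESeq2, which held all 1310, and was 465 with all 62 pairs. With all 62 pairs the counts by site were 463 contralateral and 36 ipsilateral, and with plate 1 alone 10 equatorial genes passed. With all 62 pairs the median share between embryos was 11.9% and the leading axis held 18.8%. Unequal genes numbered 4 with the part that goes with genes counted removed, 4 in plate 1, 2 at a mean of 50 CPM, 2 in 48 pairs, 34 in 62 pairs, and 5 to 11 with a single pair left out (5 without Eq38 and 6 without Eq71). By site they were 2 contralateral in plate 1, and 4 contralateral, 1 ipsilateral and 4 equatorial at a mean of 5 CPM, and 4, 13 and 1 in 62 pairs. The counting test called 4630 of 4630 genes tested at 50 CPM and 11167 of 11173 at 5 CPM.

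Genes more unequal after equatorial than contralateral ICSI numbered 15 with depth covariates, 37 in plate 1 and 41 of 4630 at 50 CPM. In 48 pairs they numbered 18, in 62 pairs 0, and without equatorial embryos 36, 67 and 71 they numbered 40. Against ipsilateral ICSI they numbered 17 with depth covariates, 9 in plate 1 and 68 of 11173 at 5 CPM. They numbered 3 in 62 pairs and 17 without those 3 embryos. Those 3 were picked as the most unequal pairs, so the choice itself favours lower counts. With a single pair left out the counts ran from 38 to 83 and from 53 to 160. The first changed by over 1.5 times without Co3 (41), Co4 (39), Co11 (38), Co14 (40), Co53 (39) or Eq71 (42), and the second without Is17 (69), Is18 (68), Is29 (60), Eq31 (160), Eq36 (55) or Eq71 (53). The pair values of equatorial less ipsilateral ICSI passed in plate 1 (0.28, permutation test, adjusted p = 0.013), as a median absolute difference (0.11, 0.013), at 50 CPM (0.20, 0.042) and in 48 pairs (0.21, 0.048), and those of equatorial less contralateral ICSI in 48 pairs (0.26, 0.048). At 5 CPM neither passed (0.14 against ipsilateral and 0.16 against contralateral ICSI, permutation test, adjusted p = 0.13 and 0.11). Neither passed in 62 pairs (0.068 and 0.22, permutation test, adjusted p = 0.76 and 0.35). Without equatorial embryos 36, 67 and 71 the differences were 0.096 and 0.089 (permutation test, adjusted p = 0.49 for both). The small difference of contralateral less ipsilateral ICSI was 0.11 in plate 1 (permutation test, adjusted p = 0.14). It changed sign at 5 CPM (-0.022), in 48 pairs (-0.040) and in 62 pairs (-0.15). The causes were not tested. The 62 pairs add blastomeres with few genes counted. No paired analysis was possible because embryo numbers are not shared between sites. Low depth of 1 sister limits single-gene reading of transcripts near 20 CPM.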

Other observations

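Besides Trac and Ajap1, 2 further genes that are not predicted had no read in either sister of at least 10 pairs, reads in both sisters of at least 10 and reads in 1 sister of at most 10. They were picked after their values were seen. Vmn2r8, a vomeronasal receptor gene, was silent in both sisters of 11 pairs, read in both of 39 and in 1 sister of 5, with a ratio of 5.89 (edgeR adjusted p = 7.6e-06). Ciita, the transactivator of MHC class II genes, was silent in both sisters of 10 pairs, read in both of 36 and in 1 sister of 9, with a ratio of 3.88 (adjusted p = 0.0016).

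The chromosome-wide values were recomputed under other settings. Of the 15 values apart for both sisters together, 12 remained apart at a mean of 50 CPM, 13 at 5 CPM, 11 in 48 pairs and 12 in 62 pairs. Of the 19 between sisters, 14, 15, 16 and 16 remained.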
